A study of Homo sapiens with 12 samples.

Results

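The wide H3K18ac regions shared by H1 embryonic stem cells and IMR90 lung fibroblasts are described here by their width in each line, the distance between their midpoints, and the sites of DNA synthesis beside them. They were chosen by 2 measured properties, a width of 500 bp or more in the H1 H3K18ac list and an overlap of 1 bp or more with a region of the IMR90 H3K18ac list. Of the 65946 regions in the H1 list, 8291 measured 500 bp or more, and 4658 of these overlapped an IMR90 region. The 4658 regions made up 7.06% of the H1 list by number and 24.5% of its length (3.85 of 15.7 Mb).

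H3K18ac is the acetylation of lysine 18 in the tail of histone H3. It is laid down mainly by the paralogous acetyltransferases p300 (EP300) and CBP (CREBBP) and is found at active promoters and enhancers, so a region marked in both a pluripotent and a differentiated cell is a place of acetylated chromatin that the lines have in common. BrdU is a thymidine analogue built into newly made DNA, and DNA pulled down with a BrdU antibody marks where cells were copying their genome.

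Both H3K18ac libraries came from untreated cells: H1 embryonic stem cells grown in mTESR1, and IMR90, a line of primary lung fibroblasts, grown in DMEM with serum. The 4 BrdU lists came from untreated IMR90, from untreated Saos-2 osteosarcoma cells, from H1 given a non-targeting siRNA (H1 control), and from H1 given siRNAs against EP300 and CREBBP together (H1 knockdown). Both H1 cultures for BrdU were also kept in 10 µM HA 1077 and were collected 72 h after transfection, so they differ in treatment from the H1 cells used for H3K18ac. Each group was 1 library, and no value below has a replicate error. Intervals are 95% intervals that cover the counting of regions only. The depth of the libraries is unknown, so that an unlisted place is one where no region was called and not one shown to lack the mark. Positions are in hg19 and are given without gene names or sequence, because no hg19 genome or annotation was used here.

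The selection was a description and not a result, and its limits were as follows. Among all H1 regions, 19.0% overlapped an IMR90 region, and the share rose with width, from 13.6% (13.3 to 13.9) of those under 500 bp to 56.2% (55.1 to 57.2) of those at or above it. It was 47.2% at 500 to 600 bp, 60.1% at 700 to 900 bp, 70.1% at 1000 to 1400 bp, and 303 of 404 regions were shared at 1500 bp or more. Just inside the width limit were 1029 shared regions of exactly 500 bp, with a median IMR90 width of 400 bp and a median midpoint offset of 100 bp. Just outside it were 1347 shared regions of 400 bp, with the same 2 medians of 400 bp and 100 bp. At the overlap limit, 677 of the 4658 regions had a single 100 bp window in common with IMR90, and 219 of the 3633 wide H1 regions without an IMR90 overlap had an IMR90 region at most 300 bp away.

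The shared regions were wide in H1 by choice, but many were not wide in IMR90. Their width in H1 ranged from 500 to 3600 bp with a median of 700 bp (quartiles 600 and 1000 bp). The IMR90 region of largest overlap, called the partner below, ranged from 100 to 7800 bp with a median of 500 bp (quartiles 200 and 900 bp). In 2521 cases (54.1%, 52.7 to 55.5) the partner was itself at least 500 bp wide, in 2137 (45.9%) it was narrower than that, and in 647 (13.9%) it was a single window of 100 bp. The IMR90 list as a whole had a median of 300 bp and the H1 list one of 100 bp, so the median partner was wider than the median region of its list. The rule favours this, since a wider IMR90 region has more length with which to meet an H1 region. The partner was also the region of largest overlap.

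**Figure D1:**
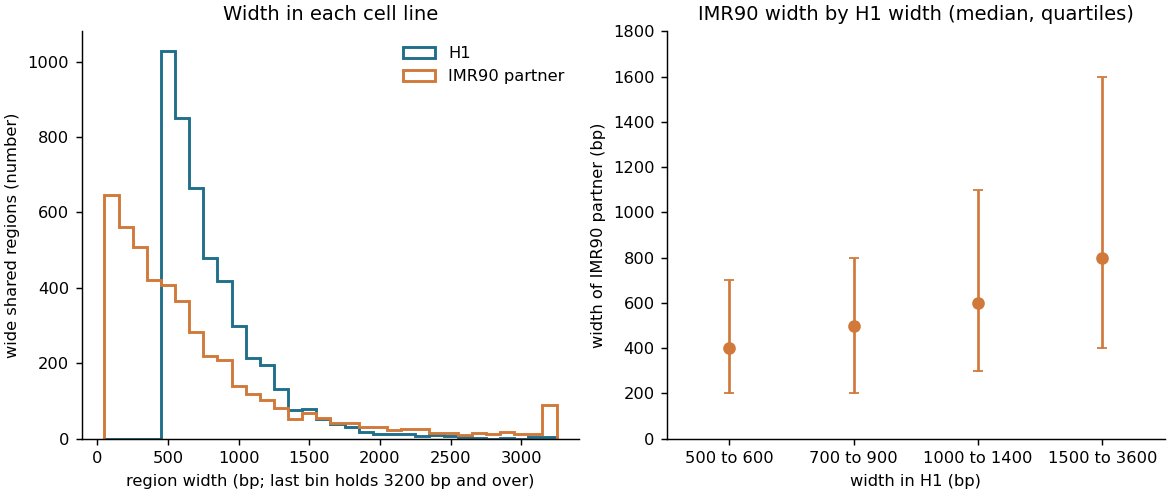
Left, number of wide shared H3K18ac regions by width (bp) in H1 and by width of the IMR90 partner, in bins of 100 bp. Right, median width of the IMR90 partner (points) with quartiles (bars) for 4 classes of H1 width. The H1 widths start at 500 bp by the selection rule, while 2137 IMR90 partners lie below it, and the median IMR90 width goes from 400 to 800 bp over the 4 classes.

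Among these regions, all chosen as wide in H1, partner width followed H1 width only loosely. The median partner measured 400 bp (quartiles 200 and 700) for H1 regions of 500 to 600 bp, 500 bp (200 and 800) for 700 to 900 bp, 600 bp (300 and 1100) for 1000 to 1400 bp and 800 bp (400 and 1600) for 1500 bp or more. Across the 4658 pairs the Spearman correlation of the widths was 0.17, and that of the authors' scores was 0.16. The rule cut the H1 widths at 500 bp, and H1 score rose with H1 width (0.79). A partner was also a single IMR90 region where more than 1 overlapped. Each of these can lower the correlations, which therefore do not measure how well the lines agree over all regions. The partner was narrower than the H1 region in 3098 cases (66.5%, 65.1 to 67.9), equally wide in 313 (6.72%) and wider in 1247 (26.8%), with a median ratio of IMR90 to H1 width of 0.667. This balance rests on the choice of wide H1 regions and on the overlap rule. When at least 50% of the H1 region had to be covered, the partner was narrower in 47.6% of 2874 regions. When the same rule was applied from the IMR90 side, 5841 IMR90 regions of 500 bp or more overlapped an H1 region, and the H1 region was then the narrower one in 76.6% (75.5 to 77.7).

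Scores are whole numbers given by the authors whose meaning is not stated, and they were used only within a list. Of the partners, 1809 (38.8%) were in the top 20% of the IMR90 list by score and 272 (5.84%) in the lowest 20%. Partner score rose with partner width (Spearman correlation 0.95), so a rule that favours wide partners favours high scores too. At equal width, the shared H1 regions had the higher median score in the H1 list. At 500 bp it was 163 for the 1029 shared regions (range 70 to 531) and 137 for the 1292 regions without an IMR90 overlap (58 to 605). At 1000 bp it was 357 for 300 regions (191 to 906) and 318 for 166 regions (193 to 638). The ranges overlapped widely at each of these widths.

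The 10 shared regions of highest H1 score, leaving out chromosomes 8, X and Y, show how differently the partner could be built. The highest-scoring region of the whole H1 list, chr7:104652401-104656000, measured 3600 bp and was covered to 91.7% by 2 IMR90 regions, the larger of which spanned 3000 bp. The region chr6:32937101-32939600, ranked 3 in H1, was 2500 bp wide and lay 96.0% within an IMR90 region of 3900 bp that ranked 24 in its own list. At chr12:46660601-46663700 (rank 5) the widths were nearly the same, 3100 bp in H1 and 3000 bp in IMR90, with midpoints 150 bp apart. At chr22:39571201-39573600 (rank 11) the H1 region of 2400 bp lay wholly inside an IMR90 region of 3100 bp.

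The others of the 10 were covered to a smaller part by IMR90. The region chr16:4662801-4666100 (rank 7) spanned 3300 bp in H1, of which IMR90 had 1 window of 100 bp, with a score ranked 79061 of 84471. At chr2:232570401-232572700 (rank 4) a 2300 bp region was covered to 52.2% by 2 IMR90 regions, the larger of 700 bp. At chr17:27070401-27073600 (rank 10) 3 IMR90 regions covered 56.3% of 3200 bp, and at chr6:35452001-35454600 (rank 13) 3 IMR90 regions covered 38.5% of 2600 bp. The remaining 2, chr9:86594101-86596500 (rank 8) and chr19:39892401-39895500 (rank 12), were covered to 87.5% and 83.9%, each by 2 IMR90 regions. Thus 6 of the 10 lay over more than 1 IMR90 region.

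Breaks of this kind were frequent in the widest regions. In all, 4037 regions (86.7%) overlapped 1 IMR90 region, 592 (12.7%) overlapped 2, 28 overlapped 3 and 1 overlapped 4. The share with 2 or more rose from 2.61% at 500 to 600 bp to 9.29% at 700 to 900 bp, 29.1% at 1000 to 1400 bp and 53.1% at 1500 bp or more. The counts depend on the room in a region, since no 2 regions of either H3K18ac list were closer than 300 bp. In the 592 regions over 2 IMR90 regions the median gap was 300 bp, the smallest that the lists contain, and the longest was 1600 bp. The centre of the gap lay at a median of 100 bp from the midpoint of the H1 region, and within 200 bp of it in 431 of 592 (72.8%), for regions with a median width of 1100 bp. Both partners have to reach the H1 region, so by construction such a gap cannot lie at its end. The region over 4 IMR90 regions, chr1:46151401-46154100, was named after its values were seen. It measured 2700 bp in H1, and its 4 partners covered 29.6% of it.

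Midpoints lay close together and showed little lean to one side. The absolute offset had a median of 150 bp (quartiles 50 and 300 bp) and a highest value of 3100 bp. The midpoints coincided in 428 regions (9.19%), were at most 100 bp apart in 1857 (39.9%) and at most 500 bp apart in 4270 (91.7%). They were more than 1000 bp apart in 75 (1.61%). The IMR90 midpoint fell inside the H1 region in 3995 cases (85.8%, 84.7 to 86.7). The signed offset had a median of 0 bp, with the IMR90 midpoint at the lower coordinate in 2179 regions (46.8%, 45.3 to 48.2) and at the higher one in 2051 (44.0%, 42.6 to 45.5). These signs are in genome coordinates without gene strand, so a shift along the direction of genes could cancel out here. Relative to the largest offset at which the 2 regions would still touch, the median offset was 25.8%. Offsets grew with width, from a median of 100 bp at 500 to 600 bp to 350 bp at 1500 bp or more (Spearman correlation across regions 0.29 with H1 width and 0.18 with IMR90 width). The largest offset that still gives an overlap also grows with both widths. Whether offsets grew beyond that was not tested.

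**Figure D2:**
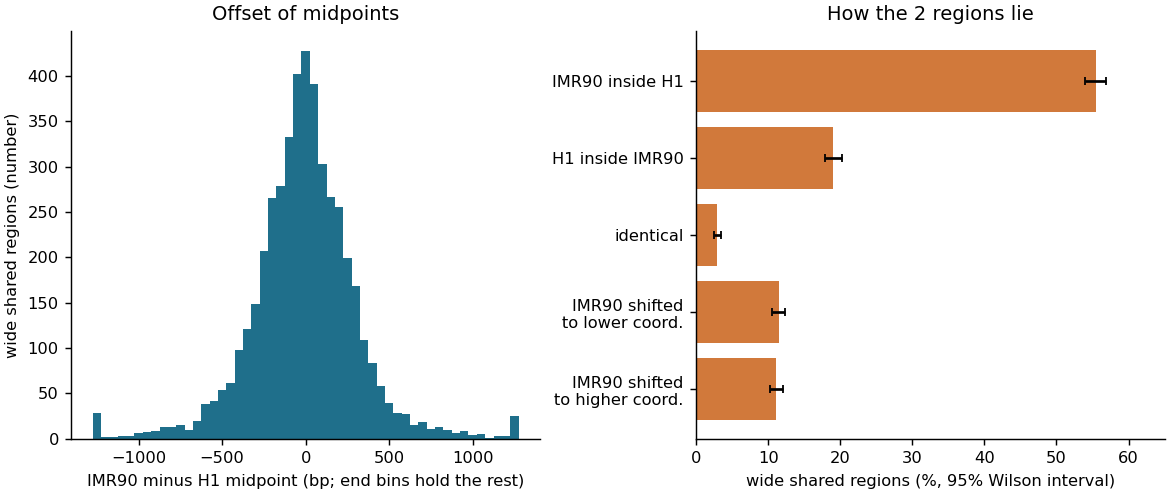
Left, number of wide shared regions by the IMR90 midpoint minus the H1 midpoint (bp, bins of 50 bp, with offsets past the axis counted in the end bins). Right, percentage of the 4658 regions in each arrangement of the H1 region and its IMR90 partner, with 95% Wilson intervals. The offsets centre on 0 bp, and the IMR90 partner lies inside the H1 region in 55.5% of cases.

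The arrangement of the pair was most often a narrow IMR90 region within a wide H1 region. This was so for 2583 regions (55.5%, 54.0 to 56.9), with median widths of 800 bp in H1 and 300 bp in IMR90 and a median offset of 150 bp. In 887 regions (19.0%, 17.9 to 20.2) the H1 region lay inside a wider IMR90 region, with medians of 600 bp and 1300 bp. The ends were staggered in 1051 regions (22.6%), by nearly equal numbers toward lower (533) and higher (518) coordinates, and the median offset was then 300 bp in either direction. In 137 regions (2.94%) both ends were the same to the window. One of these was chr10:103879701-103881200, 1500 bp in both lines. IMR90 regions covered a median of 60.0% of the H1 region (quartiles 33.3 and 87.5%), all of it in 1024 regions and less than 20% in 550. Over all 4658 regions they covered 2.27 of 3.85 Mb, or 58.8%.

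The largest offsets came from H1 regions at the edge of a broad IMR90 block, where the overlap rule leaves most room for an offset. At chr2:227662801-227664400 a 1600 bp H1 region lay at the upper end of a 7800 bp IMR90 block that starts at 227656601, the widest partner of all, and the midpoints were 3100 bp apart. At chr12:52579301-52579800 a 500 bp H1 region sat near the lower end of a 6800 bp block that ends at 52585900, with an offset of 2950 bp. At chr5:14037101-14037700 a 600 bp region lay within 6300 bp, with an offset of 2350 bp, and at chr10:80916101-80917200 an 1100 bp region lay within 5500 bp, with an offset of 2100 bp. The blocks at these 4 places ranked 15, 113, 26 and 143 by score in IMR90, and the H1 regions ranked 911, 10792, 5200 and 1173 in H1.

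A broad block could also hold more than 1 H1 region. The 5400 bp IMR90 block at chr17:47072801-47078200 was the partner of chr17:47072601-47073400, at an offset of 2500 bp, and of chr17:47074701-47076200, at an offset of 50 bp. Such sharing was uncommon, with 101 of 4658 regions (2.17%) having a partner in common with another and 4606 distinct partners in all. Only 114 partners (2.45%) measured 3000 bp or more. At the opposite extreme, the 5 highest-scoring regions with coinciding midpoints included chr15:75744601-75746200, 1600 bp in H1 around 1400 bp in IMR90, and chr19:37018801-37020100, 1300 bp in H1 around a single IMR90 window.

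Some shared regions were neighbours. Another of them lay within 10 kb of 1283 (27.5%, 26.3 to 28.8) and within 1 kb of 883 (19.0%). Among the smaller set of 3633 wide H1 regions not in IMR90, another of that set lay within 10 kb of 22.0% and within 1 kb of 11.2%. They fell into 3945 groups when those within 10 kb were joined, of which 3375 held 1 region, 469 held 2 and 1 held 13. That group spanned 68400 bp on chromosome 6, from 26184001 to 26252400, with H1 widths of 500 to 1500 bp and IMR90 widths of 400 to 2200 bp, and had no BrdU region of any list within 10 kb of its members. The next was on chromosome 11 from 118780301 to 118792700, with 7 regions in 12400 bp whose IMR90 partners were all at least 900 bp. A group of 6 lay on chromosome 17 from 27037501 to 27055800. Among autosomes, the share of wide H1 regions that were shared went from 47.4% (41.9 to 53.0) on chromosome 22 and 48.1% (44.1 to 52.1) on chromosome 19 to 68.0% on chromosome 6 and 68.5% (63.9 to 72.8) on chromosome 12.

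BrdU regions were not used in the choice of the regions, and few of the shared regions overlapped one. The H1 control, IMR90 and Saos-2 BrdU lists held 5086, 5743 and 6272 regions, and the H1 knockdown list held 1755. A shorter list has fewer regions to meet, so shares are to be compared within a list and not between lists. An H1 control BrdU region overlapped 23 of the 4658 (0.494%, 0.329 to 0.740), against 0.716% of all H1 H3K18ac regions. For the H1 knockdown the count was 6 (0.129%, 0.0590 to 0.281) against 0.0485%. For IMR90 it was 48 (1.03%, 0.778 to 1.36) against 0.849%, and for Saos-2 it was 40 (0.859%, 0.631 to 1.17) against 1.28%. The whole H1 list consists mainly of narrow regions with a median of 100 bp, which offer less length for an overlap. In all, 96 shared regions (2.06%, 1.69 to 2.51) overlapped BrdU of any list, against 188 (5.17%, 4.50 to 5.94) of the 3633 wide H1 regions not in IMR90. Of the 96, 82 overlapped 1 list, 7 overlapped 2, 7 (of the 4658 shared regions) overlapped 3 and none overlapped 4. Among the wide regions not in IMR90, 49 (1.35%) overlapped 3 or 4 lists, 4 of them all 4.

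Within 10 kb, where the width of the region itself matters little, the shared regions were below the whole list for each BrdU library. A BrdU region lay in or within 10 kb of 295 (6.33%, 5.67 to 7.07) for H1 control against 10.1% of all H1 H3K18ac regions. The counts were 97 (2.08%, 1.71 to 2.53) against 2.80% for the H1 knockdown, 338 (7.26%, 6.55 to 8.04) against 11.9% for IMR90 and 280 (6.01%, 5.36 to 6.73) against 12.1% for Saos-2. BrdU of any list was found in or within 10 kb of 788 (16.9%), against 963 (26.5%) of the wide H1 regions not in IMR90. The 3870 others (83.1%) had none of the 4 lists that near. Neighbouring shared regions can count the same BrdU region.

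Low shares within 10 kb were not particular to wide shared regions. The 7844 H1 regions under 500 bp that overlapped an IMR90 region had H1 control BrdU in or within 10 kb of 7.02%, knockdown BrdU of 2.15%, IMR90 BrdU of 8.66% and Saos-2 BrdU of 7.39%. The wide shared regions minus these gave -0.69 points (-1.58 to 0.22) for H1 control and -0.072 (-0.58 to 0.47) for the knockdown, both with intervals that include 0. For IMR90 the difference was -1.40 points (-2.36 to -0.41) and for Saos-2 -1.38 (-2.27 to -0.47). Direct overlaps, which depend on width, were found at 0.191%, 0.0255%, 0.280% and 0.242% of the narrow shared regions. Of the 49811 H1 regions under 500 bp without an IMR90 overlap, 10.8%, 2.93%, 12.7% and 13.3% had BrdU in or within 10 kb, in the same list order. A lower share at regions shared with IMR90 was therefore also seen under 500 bp.

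**Figure D3:**
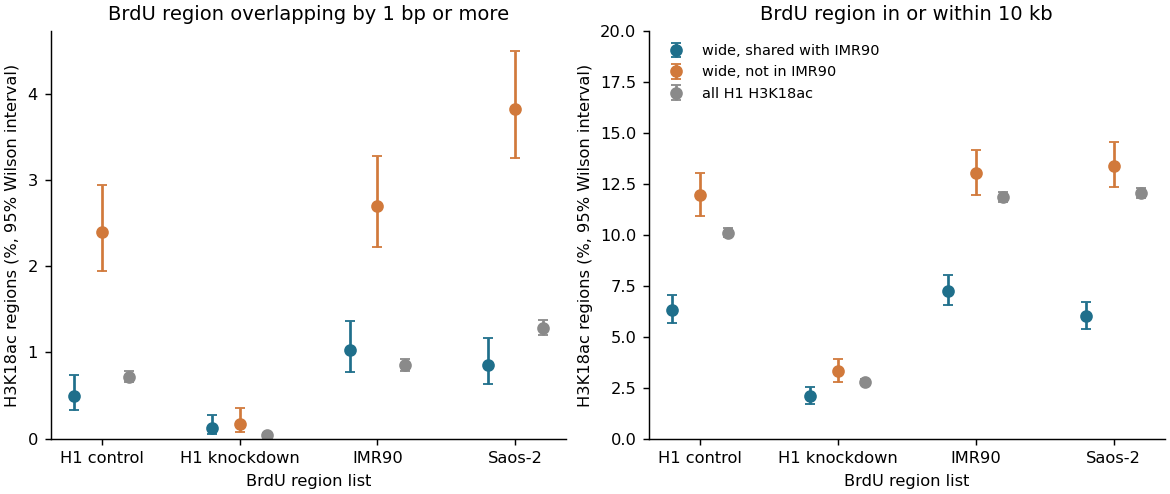
Percentage of H3K18ac regions with a BrdU region of each list overlapping (left) or in or within 10 kb (right), with 95% Wilson intervals, for the 4658 wide shared regions, the 3633 wide H1 regions not in IMR90 and all 65946 H1 regions. The wide shared regions lie below the wide regions not in IMR90 for each list, though for the H1 knockdown the intervals overlap in the left panel, and there the direction turns under 2 alternatives.

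The contrast was sharper against H1 regions of the same width rule that had no IMR90 overlap. Of these 3633 regions, 87 (2.39%, 1.95 to 2.94) overlapped H1 control BrdU, which was 4.85 times the share of the shared regions, a difference of -1.90 percentage points (-2.47 to -1.39). For Saos-2 139 did (3.83%), a difference of -2.97 points (-3.68 to -2.31), and for IMR90 98 did (2.70%), a difference of -1.67 points (-2.30 to -1.08). For the H1 knockdown 6 regions did in each set, and the difference of -0.04 points had an interval from -0.24 to 0.14 and turned positive with a stricter IMR90 list (0.049) and with regions closer than 1 kb merged (0.034). Within 10 kb the differences were -5.61 points (-6.89 to -4.36) for H1 control, -1.22 (-1.95 to -0.52) for the knockdown, -5.76 (-7.10 to -4.45) for IMR90 and -7.39 (-8.71 to -6.10) for Saos-2. Thus the IMR90 BrdU list, too, was nearer to H1 regions without IMR90 H3K18ac than to those with it.

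Within classes of H1 width, the H1 control gap within 10 kb was clearer than that in direct overlaps, of which the widest regions had few. At 500 to 600 bp, 6.44% of 1880 shared regions and 12.3% of 2105 others had H1 control BrdU in or within 10 kb, and the 8 and 48 direct overlaps gave a difference of -1.85 points (-2.61 to -1.16). At 700 to 900 bp the direct overlaps were 5 of 1560 and 30 of 1036 (-2.58 points, -3.80 to -1.61). At 1000 to 1400 bp they were 7 of 915 and 8 of 391 (-1.28 points, -3.26 to 0.01). At 1500 bp or more they were 3 of 303 and 1 of 101, with an interval from -4.45 to 2.05 points around 0. For IMR90 and for Saos-2 BrdU, the direct-overlap interval lay below 0 in the 3 classes under 1500 bp. Within 10 kb the interval lay below 0 in all 4 width classes for H1 control and for IMR90 BrdU, and in the 3 classes under 1500 bp for Saos-2. For the knockdown it lay below 0 at 700 to 900 bp, and it included 0 at 500 to 600 bp (-1.86 to 0.15), 1000 to 1400 bp (-4.16 to 0.08) and 1500 bp or more (-6.50 to 2.01). The H3K18ac surroundings of the sets also differed. A further IMR90 H3K18ac region, not overlapping, lay within 10 kb of 71.5% (70.2 to 72.8) of the shared regions and 36.3% (34.8 to 37.9) of the others, and another H1 region within 10 kb of 77.1% and 79.3%. The part of these surroundings, or of the input DNA, in the BrdU difference was not tested.

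The BrdU regions overlapping shared regions ranked lower in their lists than those overlapping the wide H1 regions not in IMR90. The 23 H1 control BrdU regions had a median score of 73, a median rank of 2563 among the 5086 regions of their list, and a median width of 100 bp. The 87 at the other set had a median score of 1132, a median rank of 298 and a median width of 500 bp. In the top 20% by score were 6 of 23 (26.1%) and 67 of 87 (77.0%), a difference of -50.9 points (-66.4 to -28.3). For IMR90 BrdU they were 7 of 48 and 56 of 103 (-39.8 points, -51.6 to -24.0), and for Saos-2 6 of 40 and 74 of 141 (-37.5 points, -48.8 to -21.2). BrdU regions found in all 3 cell lines numbered 7 of 23 for H1 control against 48 of 87 at the other set (-24.7 points, -42.6 to -1.79), 7 of 48 against 51 of 103 for IMR90 (-34.9 points, -46.9 to -19.2) and 7 of 40 against 52 of 141 for Saos-2 (-19.4 points, -31.4 to -3.09). The 7 were the same places in each list, so these 3 comparisons are not independent.

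For the lists other than the knockdown, the density of BrdU regions by distance gave the same contrast without the width of the regions. In the first 2 kb from the midpoint, shared regions had 3.92 H1 control BrdU regions per kb per 1000 regions (exact Poisson interval 3.07 to 4.93), within the 2.63 to 4.72 of the further bins out to 20 kb. For IMR90 BrdU the first bin held 6.33 (5.24 to 7.58) against 2.79 to 4.19 further out, and for Saos-2 5.64 (4.61 to 6.82) against 2.20 to 3.81. The knockdown list stayed at 1.18 (0.740 to 1.79) in the first bin and 0.751 to 1.18 beyond. Its first bin held 1.58 (1.00 to 2.37) around wide H1 regions not in IMR90, and the intervals of the sets overlapped. Around wide H1 regions not in IMR90, the first bin held 11.7 (10.0 to 13.6) for H1 control against 4.27 to 6.40 further out. It held 14.7 (12.8 to 16.8) for IMR90 against 4.95 to 7.71, and 16.3 (14.3 to 18.5) for Saos-2 against 5.16 to 6.88. For IMR90 and Saos-2 BrdU, the further bins were thus also higher there than around the shared regions. A peak of H1 control BrdU at the midpoint was not detectable at the shared regions. For IMR90 and Saos-2 BrdU the first bin at the shared regions stood above the further ones. The part of the wider surroundings in the contrast between the sets was not tested.

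**Figure D4:**
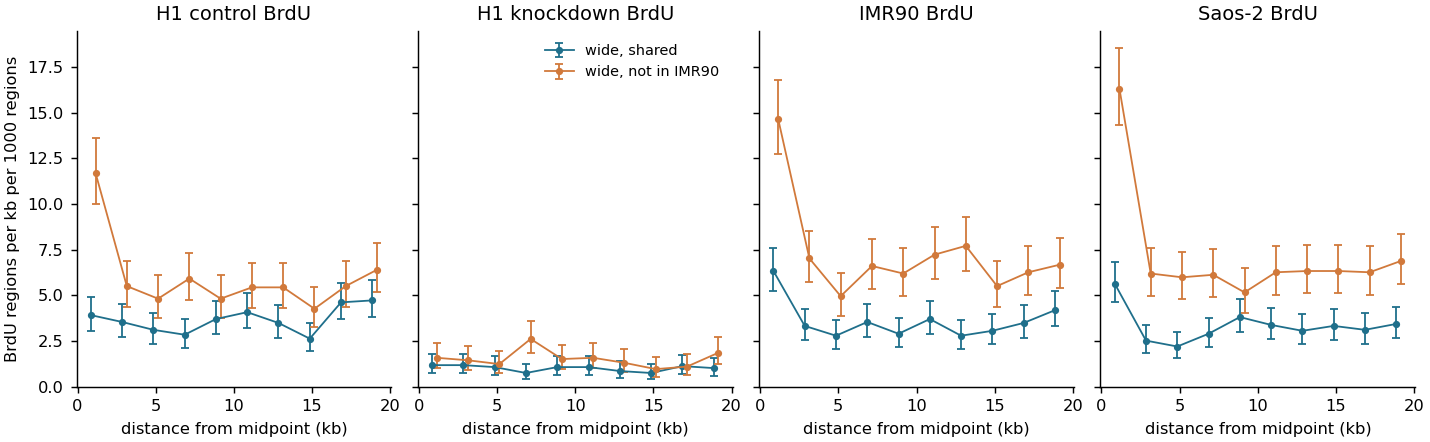
BrdU regions per kb per 1000 H3K18ac regions against the distance of their midpoints (kb, bins of 2 kb), for wide shared regions and wide H1 regions not in IMR90, with exact Poisson 95% intervals. In the first bin the wide shared regions stand at 3.92, 1.18, 6.33 and 5.64 for the 4 lists from left to right, and those not in IMR90 reach 11.7 to 16.3 for the lists other than the knockdown.

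The width of the IMR90 partner made no detectable difference to BrdU. In or within 10 kb, H1 control BrdU was found at 6.70% of the 2521 shared regions whose partner was at least 500 bp and at 5.90% of the 2137 with a narrower one, a difference of 0.81 points (-0.61 to 2.20). For IMR90 BrdU both shares were 7.26% and 7.25% (difference interval -1.51 to 1.49 points), and for Saos-2 they were 6.31% and 5.66% (-0.74 to 2.00). Where a BrdU region overlapped a shared region, its midpoint was at a median distance of 200 bp from that of the H1 region for H1 control, IMR90 and Saos-2. It also reached the IMR90 partner in 15 of 23 cases for H1 control, 29 of 48 for IMR90 and 24 of 40 for Saos-2.

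The 7 shared regions with BrdU in 3 lists carried it in H1 control, IMR90 and Saos-2, and none had a knockdown region in or within 10 kb. The knockdown list was the shortest, with 1755 regions against 5086 to 6272 in the others. The part of its length in this absence was not tested. The highest-ranked BrdU was at chr21:45024001-45025100, where the BrdU regions spanned 45024101 to 45025200 in H1 control, 45024201 to 45025100 in IMR90 and 45024101 to 45025600 in Saos-2 and ranked 21, 27 and 21 by score in their lists. H3K18ac there measured 1100 bp in H1, and IMR90 covered 36.4% of it. At chr21:43374301-43375100 the BrdU regions measured 600, 500 and 900 bp in the same order, with ranks of 158, 211 and 59. At chr2:19092701-19093500 they measured 500, 700 and 600 bp, and IMR90 H3K18ac was a region of 200 bp. At chr4:1036801-1037300 and chr4:169599901-169600500 the H1 control BrdU regions measured 1100 and 600 bp.

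Single windows of 100 bp made up much of the BrdU at the other 2 of the 7. At chr10:3088401-3088900 all 3 lists had the same single window, 3088701 to 3088800, with ranks of 2017, 1951 and 5159. This was the only one of the 7 whose H1 region lay inside a wide IMR90 region, of 2300 bp. At chr13:110695501-110696000 the H1 control and IMR90 lists had the window 110695601 to 110695700 and Saos-2 a region of 700 bp that ranked 249.

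**Figure D5:**
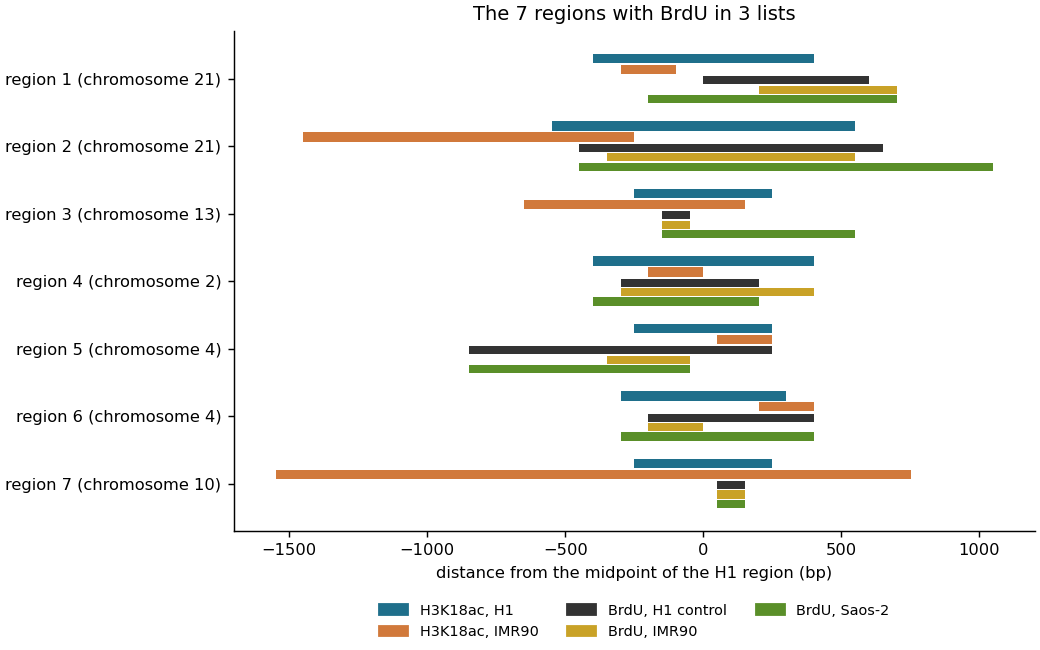
The 7 wide shared regions with BrdU in 3 lists, drawn to scale as distance (bp) from the midpoint of the H1 H3K18ac region, with the IMR90 partner of largest overlap and the overlapping BrdU regions of H1 control, IMR90 and Saos-2. Regions 1 to 7 are in order of H1 score, and in region 7 the 3 BrdU regions are the same 100 bp window.

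Some shared regions had high-ranking BrdU regions beside them and none within. Of the 85 with 3 or more BrdU regions in or within 10 kb, counted over the 4 lists, the highest number was 8, at chr7:143078701-143079200 and at chr11:355301-355900. At the former, 3 H1 control, 3 knockdown and 2 Saos-2 BrdU regions lay 2300 to 8500 bp away. At chr11:355301-355900 H3K18ac was 600 bp wide and had the same ends in both lines. Its H1 control BrdU region of 1500 bp, at 356501 to 358000, ranked 72 and began 600 bp from the H3K18ac region. In Saos-2 the same place held 1300 bp of BrdU, and in the H1 knockdown a single window at 357801 to 357900. The 4 regions with all 4 lists in reach, named after their values were seen, were the region on chromosome 11, chr17:7081001-7081500 and the neighbours chr9:132095901-132096400 and chr9:132096801-132097300. At chr17:7081001-7081500 an H1 control region of 1500 bp (rank 28) was matched by a knockdown region of 300 bp (rank 15), an IMR90 region of 900 bp and a Saos-2 region of 1600 bp, all of them 1400 to 1900 bp away. The 2 neighbours on chromosome 9 faced the same BrdU site, an H1 control region at 132101901 to 132103200 with a knockdown region of 200 bp inside it. None of these 4 overlapped BrdU of any list.

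The 6 shared regions with a knockdown BrdU region were also named after their values were seen, apart from 1 on a chromosome not named here. The widest knockdown region among the other 5 was one of 400 bp at chr11:62623601-62624000, ranked 152 in its list, in a shared region of 1400 bp. That region had H1 control BrdU 900 bp away, and the other 4, on chromosomes 5, 7 and 12, had no H1 control BrdU in or within 10 kb. None of the 5 overlapped BrdU of another list.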

How the data were processed

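The series holds 12 samples, of which 6 pulled-down libraries have a deposited region list, and the inputs were not analysed here. Reads were aligned with Bowtie 0.12.7 to hg19, per the submitters' processing notes. How regions were called, at which threshold, and whether inputs or duplicates were taken into account is not given in the sources used here. All region ends fall on multiples of 100 bp, and a width counts the first and last base. The last column of each deposited list was read as a score of unstated meaning and was only ranked within its list. Libraries were made from 4 µg of BrdU-labelled DNA or 5000000 cells for H3K18ac, per the labels' protocols.

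Overlaps were computed in Python 3.11.15 (numpy 2.4.6, pandas 2.3.3, scipy 1.17.1, matplotlib 3.10.9), with code tested on simulated lists. The partner was the IMR90 region of largest overlap. Shares have Wilson intervals, differences Newcombe intervals and densities exact Poisson intervals. Neighbouring regions are not independent. With 1 library per group no p-value is given. Members and comparisons were chosen with earlier results of these data known. Regions were named by H1 score, partner width, offset and BrdU lists, up to 10 of each, and those on chromosomes 8, X and Y were counted but not named. Cell type markers and gene lists were not used, since the annotation at hand was of another build.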

Additional observations from a re-analysis of the deposited data

How the results depend on the processing

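With 1 library per group there was no replicate to leave out. No paired analysis was possible because each group holds 1 library. The results were recomputed under 17 alternatives, which gave 238 values. Of these 175 stayed within the interval of the reported value (for the number of regions, within 1.5 times), 63 moved past it and 0 changed sign where the reported interval lay on one side of 0. For H1 control, IMR90 and Saos-2 BrdU, 81 of 81 differences between shared regions and wide H1 regions not in IMR90 were below 0, as were 15 of 15 for the knockdown within 10 kb and 10 of 12 for its overlaps. The other 2 overlap differences, whose reported interval includes 0, were 0.049 with the stricter IMR90 list and 0.034 with regions merged. The knockdown interval within 10 kb included 0 in 3 of 13 alternatives, at a width of 1000 bp or more (-1.57 points, -3.67 to 0.02), with the stricter IMR90 list (-0.62, -1.30 to 0.08) and at a distance of 1 kb (-0.075, -0.38 to 0.20). Of the 69 with an interval outside the knockdown list, 68 had it wholly below 0. The exception was the H1 control overlap at a width of 1000 bp or more, at -1.01 points (-2.66 to 0.09). By definition, a shorter distance or a shorter BrdU list can only lower a BrdU share, and a longer distance can only raise it. For the other values that moved, the cause was not tested.

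The size and shape of the set followed the rule. With at least 50% of the H1 region covered, 2874 regions remained, the median IMR90 width was 700 bp, IMR90 was narrower in 47.6% and 0.626% overlapped Saos-2 BrdU. With an overlap of 50% of both regions these values were 2175, 700 bp, 53.8% and 0.598%, the median offset was 100 bp, 0.0460% overlapped knockdown BrdU and 5.33% had Saos-2 BrdU within 10 kb. IMR90 was narrower in 61.2% at a minimum width of 400 bp and in 69.8% at 600 bp, where the median offset was 200 bp. A minimum of 1000 bp left 1218 regions, with a median IMR90 width of 700 bp, an offset of 250 bp and IMR90 narrower in 77.9%. H1 control BrdU then overlapped 0.821% and knockdown BrdU 0.411%, IMR90 BrdU lay within 10 kb of 6.32%, and the Saos-2 difference within 10 kb was -5.43 points. With the upper 50% of IMR90 regions by score, the median IMR90 width was 700 bp, IMR90 was narrower in 54.8%, and the differences within 10 kb were -4.07 points for H1 control and -5.60 for Saos-2. With regions closer than 1 kb merged, the median IMR90 width was 1100 bp, the offset 300 bp and IMR90 narrower in 55.6%. Overlaps were then 1.70% for IMR90 and 1.27% for Saos-2 BrdU, IMR90 BrdU lay within 10 kb of 8.34%, and the differences within 10 kb were -6.90 points for H1 control, -7.20 for IMR90 and -9.61 for Saos-2. With the span of all overlapping IMR90 regions as the partner, the median width was 600 bp and IMR90 was narrower in 60.2%.

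BrdU shares followed the distance and the BrdU threshold. At 1 kb they were 1.07% for H1 control, 0.365% for the knockdown, 2.06% for IMR90 and 1.74% for Saos-2, with differences of -2.67, -0.075, -2.32 and -3.74 points. At 50 kb they were 26.9%, 11.4%, 25.2% and 22.7%, with differences of -8.31, -2.05, -11.2 and -12.5 points. With the upper 50% of each BrdU list by score, overlaps were 0.236% for H1 control, 0.515% for IMR90 and 0.365% for Saos-2. Within 10 kb the shares were then 2.40%, 1.16%, 3.13% and 2.32% in the order above, with a Saos-2 difference of -5.66 points. With shared regions within 10 kb joined into 1 span, 1.19% of the spans overlapped Saos-2 BrdU. A span includes the gaps between its regions, so BrdU in a gap counts as an overlap there. Without read counts, how depth limits these lists is unknown.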
